A study of Homo sapiens with 11 samples.

Results

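Methyl methanesulfonate (MMS) is a small alkylating agent, and gene expression after it in MDA-MB231 cells was described from 2 of the 11 RNA-seq libraries of the series. One library came from MDA-MB231 cells given MMS at 40 µg/mL for 8 h. It was compared with the control library of the same title form, whose title ends in 8hr and whose treatment label is DMSO, the vehicle, although a short description of the same sample reads as untreated. These cells come from a breast cancer of the basal type, and the MMS and DMSO 8hr labels also name DMEM with fetal bovine serum as the medium. A second MDA-MB231 DMSO library, with no time in its title, served as a further reference. A further 2 sets of libraries were set beside the result. The first was U2OS osteosarcoma cells with MMS at the same dose and time against U2OS DMSO, whose title also gives no time. The other was MDA-MB231 cells with doxorubicin (1 µM), etoposide (20 µM) or paclitaxel (0.2 µM) for 8 h against the second MDA-MB231 DMSO library. The files list 23228 genes, and 10778 of them were described, those with a scaled read count (CPM, the count relative to library size) of at least 5 in the MMS or the DMSO 8hr library. Each treatment of a line had 1 library, so no difference below carries a test of replicates, and the words higher and lower compare libraries, not conditions.

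MMS methylates the ring nitrogens of guanine and adenine in DNA, and to a smaller extent guanine oxygen, and it also methylates RNA, proteins and thiols such as glutathione. Methylated bases are removed by a DNA glycosylase that starts base excision repair, by direct reversal enzymes, or are bypassed by translesion polymerases. Cells meet such damage with several gene programmes. In the integrated stress response, kinases that phosphorylate the translation factor eIF2 lower general protein synthesis while the transcription factor ATF4 is made, and ATF4 drives genes of amino acid supply together with ATF3, DDIT3 and TRIB3. NRF2 is held down by KEAP1, a sensor with reactive cysteines, and once released it drives glutathione, thioredoxin and iron-handling genes. HSF1 drives chaperones of the cytosol, and ATF6 and XBP1 drive chaperones of the endoplasmic reticulum.

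The counts assigned to genes came to 26448212 in the MMS library and 16774156 in the DMSO 8hr library, within 16774156 to 31588683 over the 11 libraries. At this depth 1 CPM stood for 25.1 reads in the MMS library and 16.1 in the DMSO 8hr library. Of the 15 breast and mesenchymal markers looked at, 14 passed the minimum, among them VIM at 2130 CPM and CD44 at 1037 CPM in the DMSO 8hr library, and TWIST1 had 0 reads there. The luminal hormone receptors ESR1 and PGR lay at 0.186 and 0.372 CPM, and KRT18 reached 244 CPM. The bone genes SP7, ALPL, IBSP and DLX5 had 0 reads in all 3 MDA-MB231 libraries considered, the MMS library and both DMSO libraries. The blood marker HBB and the fibroblast marker PDGFRA also had 0 reads. The summed level of the breast and mesenchymal list was 8296 CPM in the DMSO 8hr library, 8206 in the other DMSO library and 6622 with MMS. The blood list summed to 203 CPM, 182 and 199 in that order, almost all of it CD68 and LCP1. The endothelial and fibroblast list summed to 27.1, 23.3 and 14.2 CPM. In bulk RNA, fewer cells of a type and less RNA per cell cannot be told apart.

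Throughout, a ratio is the log2 ratio of CPM in the MMS library to that in the DMSO 8hr library, with 0.5 added to each CPM, so that 1 means about 2-fold. Where CPM values are given as a series they are in the order DMSO 8hr, other DMSO, MMS, and a number in brackets after them, or after a gene's name, is the log2 ratio; a range in brackets is its counting interval. By this measure 292 of the 10778 genes (2.71%) were at least 2-fold higher with MMS and 367 (3.41%) were at least 2-fold lower. These shares are the background for every list count below, and in a short list a few members past 2-fold can lie near them. A gene under 5 CPM in 1 of the 2 libraries passed the minimum only through the other. Such a gene could count as past 2-fold in 1 direction only. Within 1.5-fold of the DMSO 8hr level lay 8674 genes (80.5%), and 27 genes were at least 4-fold higher and 41 at least 4-fold lower. The median log2 ratio of all genes was -0.000757. Against the other DMSO library alone, 419 of 10902 genes (3.84%) were at least 2-fold higher and 539 (4.94%) at least 2-fold lower, 8.79% in all. Both DMSO libraries together left 217 genes (2.02% of 10718) at least 2-fold higher than each, and 244 (2.28%) at least 2-fold lower than each. The DMSO 8hr library itself differed at least 2-fold from the other DMSO library at 193 of 10826 genes (1.78%), 89 higher (0.822%) and 104 lower (0.961%), which gives the size of the difference between 2 vehicle libraries of this line. The 95% binomial intervals cover counting error only. They reached below 2-fold for 109 of the 292 higher genes and 130 of the 367 lower genes. None of them reached a ratio of 0, but at this depth the 2-fold rule and the CPM minimum already fix that.

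**Figure D1:**
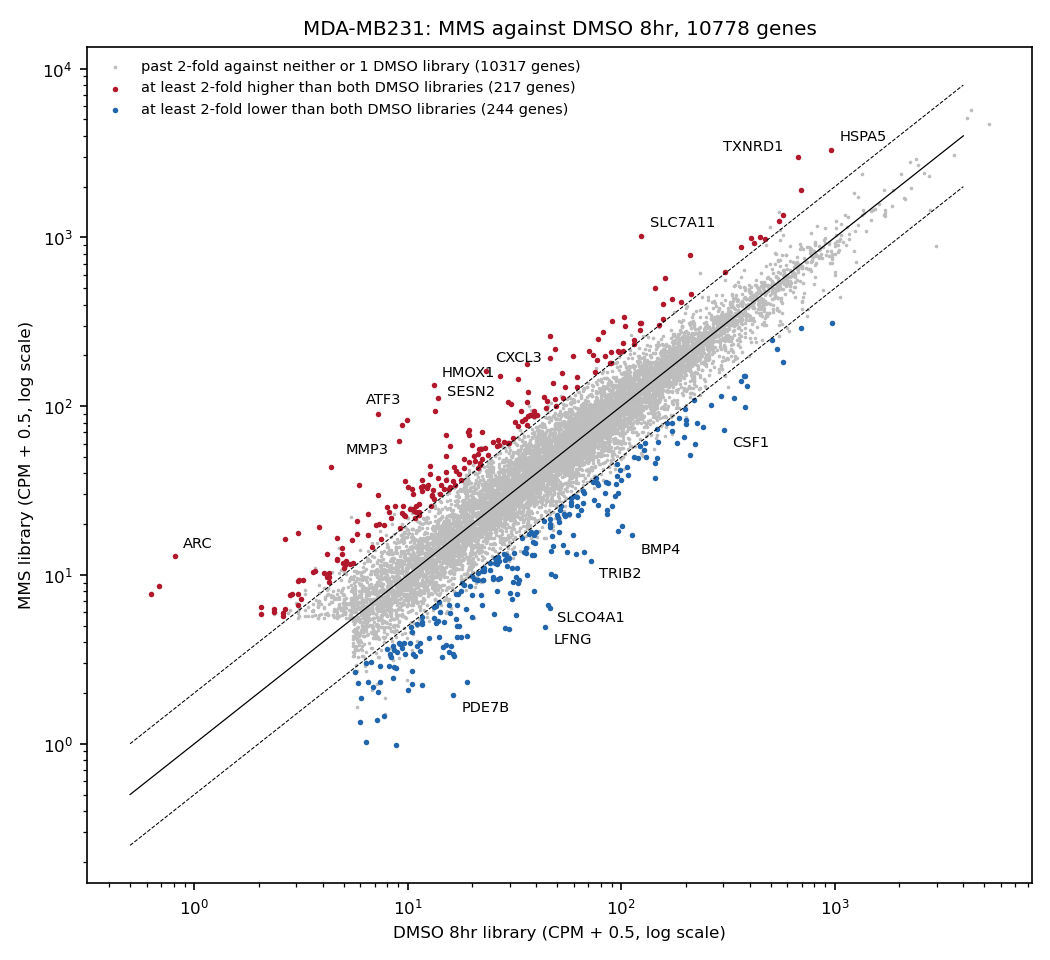
Level of each of 10778 genes in the DMSO 8hr library (horizontal axis, CPM + 0.5, log scale) and in the MMS library (vertical axis, same scale) of MDA-MB231 cells; the solid line marks equal levels and the dashed lines 2-fold. The 217 red genes were at least 2-fold above both DMSO libraries and the 244 blue genes at least 2-fold below both, while most genes lie between the dashed lines.

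The genes furthest above both DMSO libraries included members of these stress programmes. Of the 15 with the highest ratios, 11 were in the lists described in the following paragraphs and 4 were in none of those, the families of the closing section aside: ADM2, MMP3, MKX and MYCT1. ADM2, a peptide hormone of the calcitonin family, stood at 3.85 CPM in the DMSO 8hr library, 2.62 in the other DMSO library and 42.9 with MMS, a log2 ratio of 3.32. MMP3, the matrix protease stromelysin, went from 8.63 and 7.59 CPM in the DMSO libraries to 61.3. MYCT1, a gene named as a MYC target, stood at 5.40 and 4.03 CPM without MMS and 33.7 with it. MKX, the tendon homeobox factor Mohawk, was at 2.17 and 4.54 CPM and reached 15.9. By the rule that named them, all 15 lay at least 2-fold above both DMSO libraries. In each of these 4 genes the DMSO libraries lay closer to each other than to the MMS library.

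Genes of the integrated stress response were higher as a group. Of its 18 listed factors and feedback genes, 17 passed the CPM minimum, and 14 of these were at least 2-fold higher with MMS against the background of 2.71% of all genes, with none at least 2-fold lower. The median log2 ratio of the 17 was 1.65, all 17 lay above 0, and 13 were at least 2-fold above both DMSO libraries. ATF4, the central transcription factor, which is controlled mostly at translation, stood at 173 CPM in the DMSO 8hr library, 159 in the other DMSO library and 429.6 with MMS. Its log2 ratio was 1.31, with an interval of 1.25 to 1.38. ATF3, a stress-induced partner of the same family, stood at 6.77, 7.08 and 89.3 CPM in that order, a log2 ratio of 3.63 (3.44 to 4.01). DDIT3, which encodes the death-promoting factor CHOP, was measured at 14.6, 16.5 and 67.3 CPM (2.17). For ATF3 and DDIT3 the 2 DMSO libraries lay close together and the MMS library far above them.

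Feedback and effector genes of the same response went the same way. CHAC1, which breaks down glutathione, was at 9.44 and 9.85 CPM in the DMSO libraries and 82.8 with MMS (3.07). TRIB3, a pseudokinase that restrains ATF4, was at 45.7 and 35.9 CPM and 260.1 with MMS (2.5). SESN2, a sestrin that senses leucine and restrains the growth kinase complex mTORC1, was at 13.4 and 13.7 CPM and 111 with MMS (3.0). All 3 were above both DMSO libraries by more than those libraries differed. PPP1R15A, which brings a phosphatase back to eIF2, went from 210.2 and 188 CPM to 784. The members at least 2-fold higher that are not named so far were JDP2, CEBPG, CEBPB, VLDLR, NUPR1, GDF15 and DDIT4, with log2 ratios from 1.14 for CEBPB to 2.04 for JDP2. DDIT4, an mTORC1 inhibitor, was the 1 of the 14 that missed 2-fold against the other DMSO library, where its ratio was 0.99. ATF5 (0.02), VEGFA (0.22) and EIF4EBP1 (0.48) stayed under 2-fold, and STC2 did not pass the CPM minimum.

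The promoters of this group were searched for the letters TGATGNAA, the core of the element that ATF4 binds with C/EBP partners, on both strands of the 250 bases before each start listed by RefSeq (GRCh38.p14). Of the 14 members with a promoter entry, 4 held it, ATF3, CHAC1, CEBPG and JDP2, against 3.14% of all 35116 promoters and 2.25% of the 8773 described genes that matched an entry. Of the genes at least 2-fold higher with an entry 9 of 237 held it (3.80%), and of those at least 2-fold lower 11 of 283 (3.89%). An entry was found for 77.1% of the lower genes, too few for a check here and for the motifs below. The stretches below show the match in capitals in 3 of the 9 higher genes, ATF3 (3.63), CHAC1 (3.07) and ASNS (1.23). ASNS belongs to the amino acid synthesis list, and others of the 9, such as HERPUD1 (2.06), had higher ratios than it. A match describes letters and shows no binding, and a strand turned the other way reads as the reverse complement. Shares of all promoters count single starts, while shares of genes and list members count a match before any start of the gene. The list was chosen as genes of this response, so its share is not independent of that choice. The same holds for the stress lists below.
ATF3, chr1:212565176-212565263, plus strand: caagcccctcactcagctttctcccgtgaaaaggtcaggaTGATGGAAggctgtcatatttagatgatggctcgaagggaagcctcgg
CHAC1, chr15:40953222-40953309, plus strand: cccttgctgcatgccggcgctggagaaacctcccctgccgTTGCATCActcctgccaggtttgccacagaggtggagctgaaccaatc
ASNS, chr7:97872429-97872516, minus strand: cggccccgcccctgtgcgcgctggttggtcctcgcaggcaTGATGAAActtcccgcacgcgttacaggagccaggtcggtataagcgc
Each sequence runs 5′ to 3′ along the gene's own strand. In CHAC1 the match lies in the opposite direction to that in ATF3 and ASNS.

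Amino acid supply, the metabolic arm of ATF4, was higher in part and its size depended on the DMSO library used. Among 13 enzymes of amino acid synthesis and one-carbon metabolism past the minimum, 4 were at least 2-fold higher and none lower, with a median of 0.50. CTH, which makes cysteine from cystathionine, was at 28.9 and 17.5 CPM in the DMSO libraries and 106 with MMS (1.85). ASNS, asparagine synthetase, was at 101 and 44 CPM and 237 with MMS. Its log2 ratio was 1.23 against DMSO 8hr and 2.42 against the other DMSO library. GPT2, a mitochondrial alanine aminotransferase, and MTHFD2, a mitochondrial folate enzyme, had ratios of 1.26 and 1.23. PHGDH, the first enzyme of serine synthesis, was under 2-fold at 0.72, with 28.6, 15.2 and 47.5 CPM in the DMSO 8hr, other DMSO and MMS libraries. The median of the 13 was 1.18 against the other DMSO library, and the DMSO 8hr library had a median 0.37 above the other DMSO library for the same list.

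Of 11 amino acid transporters past the minimum, 3 were at least 2-fold higher, with a list median of 0.62 and all 11 above 0. With the other DMSO library as reference 7 were, with a median of 1.21, and 3 were so against both. SLC7A11, the cystine carrier that feeds glutathione synthesis and a target of both ATF4 and NRF2, stood at 124 CPM in the DMSO 8hr library, 37.3 in the other DMSO library and 1025 with MMS. The log2 ratio was 3.05 (2.99 to 3.12) against DMSO 8hr and 4.76 against the other DMSO library. The MMS library was the highest of the 3 by far, and the DMSO libraries themselves stood well apart. Its heavy-chain partner SLC3A2 was at 305, 194 and 626 CPM (1.03), an interval of 0.99 to 1.08 that reached just under 2-fold. SLC1A4, a carrier of small neutral amino acids, was at 18.8, 17.4 and 67 CPM (1.81). The glycine carrier SLC6A9 (0.86) and the arginine carrier SLC7A1 (0.68) were higher by less than 2-fold.

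The cytosolic aminoacyl-tRNA synthetases, which load amino acids onto tRNA, also depended on the DMSO library. None of the 20 was 2-fold away from DMSO 8hr, and 17 lay above 0, with a median of 0.27. Against the other DMSO library the median was 0.53 and 4 were at least 2-fold higher, GARS (1.51), CARS (1.22), SARS (1.11) and WARS (1.04). The highest against DMSO 8hr were SARS, for serine, at 0.88, and GARS, for glycine, at 0.80. GARS was at 554 CPM in the DMSO 8hr library, 339 in the other DMSO library and 965 with MMS. The 17 mitochondrial synthetases held a median of -0.13 and also had no member at 2-fold. YARS2 lay highest of them at 0.58 and FARS2 lowest at -0.88.

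The NRF2 group held 15 of 30 measured members at least 2-fold higher and none at least 2-fold lower, with a median of 0.97, and 13 of the 15 were so against both DMSO libraries. HMOX1, the haem-degrading enzyme heme oxygenase, stood at 12.7 CPM in the DMSO 8hr library, 14.4 in the other DMSO library and 132 with MMS. Its log2 ratio was 3.33 (3.17 to 3.59). OSGIN1, an oxidative-stress growth inhibitor, stood at 8.94, 7.43 and 76.7 CPM (3.03). In both genes the MMS library lay far above DMSO libraries that were near each other.

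The thioredoxin and glutathione genes were among the most abundant of the higher genes. TXNRD1, cytosolic thioredoxin reductase, went from 672 and 533 CPM in the DMSO libraries to 3005 with MMS, a log2 ratio of 2.16 (2.13 to 2.19). SRXN1, which repairs oxidised peroxiredoxins, was at 143, 134 and 498 CPM (1.8). The subunits of the enzyme that limits glutathione synthesis had ratios of 1.73 for GCLM, the modifier, and 1.18 for GCLC, the catalytic subunit. NQO1, a quinone reductase, had 1.72, and UGDH, which makes the sugar donor of glucuronidation, had 1.59. The ferritin chains, which store iron, had 1.46 for FTL and 1.04 for FTH1; both have many processed pseudogenes, so reads shared with them may be missing. TRIM16L, a tripartite-motif gene with a near copy in TRIM16, had 1.81. SQSTM1 (1.25), AKR1C1 (1.18) and MAFG (1.01), with SLC7A11 from above, complete the 15. MAFG and FTH1 were the 2 that missed 2-fold against the other DMSO library, at 0.85 and 0.85. The pentose phosphate enzymes PGD and TKT had ratios of -0.03 and -0.01. The drug exporter ABCC1 was lowest of the list at -0.73.

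The letters TGACNNNGC, the core of the antioxidant response element, were found in the promoters of 6 of 21 members with an entry, GCLM, TXNRD1, PGD, ME1, EPHX1 and KEAP1. Across all promoters 10.9% held them, across the described genes 15.8%, and across the genes at least 2-fold higher 16.5%, 39 of 237, beside 14.5% of the lower genes with an entry. Of the members high in the response, 2 are shown with the match in capitals, since both lie close to the start.
TXNRD1, chr12:104215640-104215728, plus strand: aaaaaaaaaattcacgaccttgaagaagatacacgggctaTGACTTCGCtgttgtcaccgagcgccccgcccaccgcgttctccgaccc
GCLM, chr1:93909431-93909504, minus strand: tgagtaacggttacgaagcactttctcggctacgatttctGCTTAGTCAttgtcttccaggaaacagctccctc
In GCLM the match runs on the opposite strand. PGD and KEAP1 held the letters too and had ratios of -0.03 and 0.45.

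**Figure D2:**
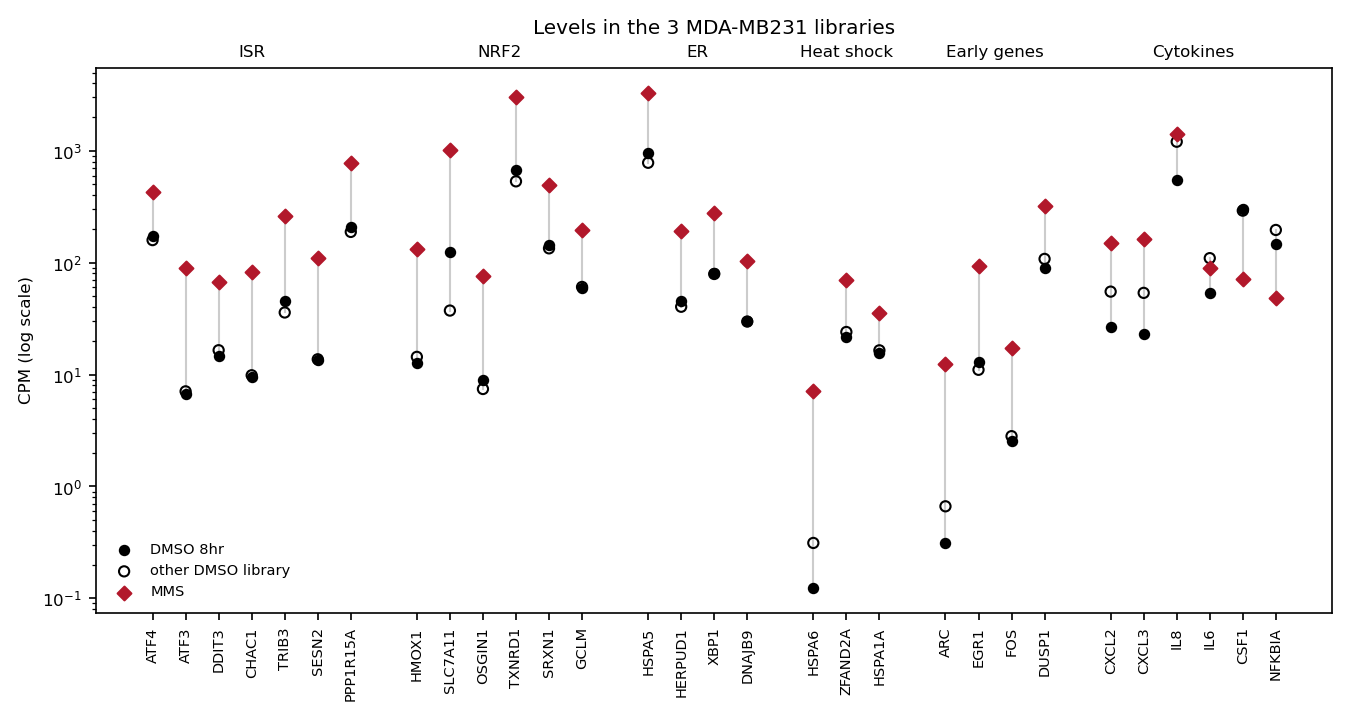
CPM (log scale) of selected stress, early and cytokine genes in the DMSO 8hr library (filled circles), the other DMSO library (open circles) and the MMS library (red diamonds) of MDA-MB231 cells. For ATF3, HMOX1 and HSPA5 the MMS value stands above 2 DMSO values that lie close together, whereas for IL8 and IL6 the 2 DMSO values stand apart and the other DMSO library is near or above the MMS value.

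Chaperone genes were taken by compartment. Of 26 cytosolic and mitochondrial heat shock genes past the minimum, 3 were at least 2-fold higher, beside 2.71% of all genes. All 3 were so against both DMSO libraries, and the list median was 0.23 (0.45 against the other DMSO library). HSPA6, a strictly inducible HSP70, had 2 reads in the DMSO 8hr library, 8 in the other DMSO library and 180 with MMS. These are 0.124, 0.313 and 7.18 CPM, and the log2 ratio was 3.62. HSPA6 thus passed the minimum only through the MMS library and could not have counted as lower. The counting interval of the plain ratio ran from 3.98 to 8.91, above the printed value because the 0.5 added to each CPM pulls ratios of rare genes toward 0. ZFAND2A, a heat-inducible zinc finger protein that works with the proteasome, was at 21.7, 24 and 70 CPM (1.67). The near-identical HSP70 genes HSPA1A (1.16) and HSPA1B (0.95) share most of their sequence, so the division of reads between them is uncertain. The heat shock element letters GAANNTTC occurred in promoters of 13 of the 24 members with an entry, against 5.78% of all promoters. Across the described genes 5.71% held them, across the genes at least 2-fold higher 6.75%, and across the lower genes with an entry 6.71%. The list was drawn up as heat shock genes and HSF1 targets, so its share is not independent of that choice. Of the 3 higher members, HSPA6 and HSPA1A held the letters and ZFAND2A did not. HSPA6 held 2 matches, and the stretch around them is shown because this gene had the highest ratio of its list.
HSPA6, chr1:161524320-161524518, plus strand: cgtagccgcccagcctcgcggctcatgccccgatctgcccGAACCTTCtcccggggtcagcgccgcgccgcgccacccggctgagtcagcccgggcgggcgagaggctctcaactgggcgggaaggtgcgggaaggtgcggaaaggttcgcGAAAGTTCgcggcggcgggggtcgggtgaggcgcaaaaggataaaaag

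In the endoplasmic reticulum, 6 of 27 chaperone and unfolded protein response genes were at least 2-fold higher against both DMSO libraries, the median was 0.45, and 26 of the 27 lay above 0. HSPA5, the master chaperone BiP, was at 964 CPM in the DMSO 8hr library, 781 in the other DMSO library and 3308 with MMS, a log2 ratio of 1.78 (1.75 to 1.8). HERPUD1, part of the machinery that removes misfolded proteins, was at 45.6, 40.4 and 192 CPM (2.06). XBP1, the factor spliced by the sensor IRE1, was at 81.4, 79.2 and 275 CPM (1.75); counts per gene do not tell its spliced form from the unspliced one. DNAJB9, a BiP cochaperone, ERO1LB, an oxidase, and ERN1, which encodes IRE1, had ratios of 1.77, 1.41 and 1.3. In these 6 genes the MMS library was higher than both DMSO libraries. The lectin chaperones were higher by much less, with CANX at 0.31 and CALR at 0.22, and the glucose-regulated HSP90B1 at 0.58.

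The endoplasmic reticulum stress element, which is CCAAT and CCACG with 9 bases of any kind between them, was present in promoters of 8 of 25 members with an entry, against 0.0740% of all 35116 promoters and 0.182% of described genes. Of the 237 higher genes with an entry, 4 held it (1.69%): ERO1LB, FICD, HSPA5 and XBP1. Of the 283 lower genes with an entry, 1 held it (0.353%), but entries covered 77.1% of the lower genes, too few for a check. The list was drawn up for this response, so its share is not independent of that choice. The stretches of the 2 most abundant are shown with the whole element in capitals.
HSPA5, chr9:125241351-125241449, minus strand: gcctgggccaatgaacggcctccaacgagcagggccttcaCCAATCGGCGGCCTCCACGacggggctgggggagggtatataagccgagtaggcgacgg
XBP1, chr22:28800570-28800661, minus strand: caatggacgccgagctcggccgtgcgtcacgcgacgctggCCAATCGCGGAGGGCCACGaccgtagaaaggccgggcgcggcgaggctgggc
Members of the list with the same letters and ratios under 2-fold were HSP90B1 (0.58), PDIA6 (0.25), CALR (0.22), CANX (0.31) and CRELD2 (0.47).

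Immediate early genes, which growth factors and stress switch on without new protein synthesis, were higher in part. Of 25 past the minimum, 6 were at least 2-fold higher, all against both DMSO libraries, none was 2-fold lower, and the median was 0.46. ARC, a cytoskeleton-associated early gene best known in neurons, had the highest ratio among the genes named for their rank. It had 5 reads in the DMSO 8hr library, 17 in the other DMSO library and 310 with MMS, which are 0.310, 0.665 and 12.4 CPM and a log2 ratio of 3.99 (interval of the plain ratio 4.08 to 6.95). EGR1, a zinc finger early factor, was at 13, 11 and 93.5 CPM (2.8). FOS, a subunit of the factor AP-1, was at 2.54, 2.81 and 17.1 CPM (2.54). Its relative FOSB had a ratio of 1.66, JUNB of 1.06, and ZFP36, which speeds decay of cytokine messages, of 1.43. ARC, FOS and FOSB passed the minimum only through the MMS library, so they could not have counted as lower. JUN (0.46) and MYC (0.61) were higher by less than 2-fold, and FOSL2 was the lowest of the list at -0.76. MYC stood at 248, 254 and 379 CPM.

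The phosphatases and Sprouty proteins that dampen MAP kinase signalling did not share a direction. DUSP1, a nuclear phosphatase induced by stress, was at 89.9 and 108 CPM in the DMSO libraries and 319 with MMS (1.82). DUSP6, which acts on ERK in the cytosol, was at 375 and 307 CPM and 150.5 with MMS (-1.32). SPRY1, a Sprouty inhibitor of receptor signalling, was at 15.7 and 21.4 CPM and 2.91 with MMS (-2.25). So 1 of the 13 measured members was at least 2-fold higher and 2 at least 2-fold lower, with a median of -0.26. No member of the metallothionein and zinc transporter list reached 2-fold against DMSO 8hr, where the median of 9 was 0.50. In comparison with the other DMSO library 3 did, SLC30A1 (1.64), SLC30A7 (1.11) and SLC39A14 (1.08), and the median was 0.41. Against DMSO 8hr the zinc exporter SLC30A1 and the importer SLC39A10 lay at 0.86 and -0.99.

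The list of damage-induced arrest and death genes held 6 of 30 members at least 2-fold higher, none at least 2-fold lower and a median of 0.40. Of the 6, SESN2 and GDF15 are also in the integrated stress response list. GADD45A, a stress sensor that binds PCNA, was at 35.5 CPM in the DMSO 8hr library, 37.8 in the other DMSO library and 177 with MMS (2.3). CDKN1A, the cyclin-dependent kinase inhibitor p21, was at 103, 149 and 299.6 CPM. Its ratio was 1.53 against DMSO 8hr and 1.0 against the other DMSO library. GDF15, a secreted stress hormone, had 1.64, and SERTAD1, a regulator of CDK4, 1.3. TP53INP1, which promotes autophagy and death, had a ratio of 1.0 and missed 2-fold against the other DMSO library (0.31). The other members were under 2-fold. MDM2, a ubiquitin ligase, was at 85.5, 78.4 and 116 CPM (0.43), BBC3 (PUMA) had 0.76, PMAIP1 (NOXA) 0.71, BAX -0.21 and the repair gene DDB2 -0.60. Beside them, the inhibitors CDKN2C and CDKN1B were lower, at -1.32 and -0.94, and CDKN2C passed 2-fold against both DMSO libraries.

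No listed gene that repairs or bypasses methylated DNA reached 2-fold against DMSO 8hr. None of the 26 alkylation and base excision repair genes past the minimum was 2-fold away, against 6.11% of all genes, and their ratios spanned -0.60 to 0.64 around a median of 0.03. MPG, the glycosylase that removes methylated adenine and guanine, was at 31.7 CPM in the DMSO 8hr library, 27.6 in the other DMSO library and 26.1 with MMS (-0.28). MGMT, the protein that takes methyl groups off guanine oxygen, had 0 reads in the MMS and DMSO 8hr libraries and 1 in the other DMSO library. A count of 0 allows up to 3 reads, so no direction can be given for it. The demethylases ALKBH2 and ALKBH3 had ratios of 0.37 and 0.48, the scaffold XRCC1 -0.60, the polymerase POLB 0.36, the endonuclease APEX1 -0.38 and the nick sensor PARP1 -0.26. MBD4, a mismatch glycosylase, lay highest at 0.64. The mismatch and nucleotide excision repair list (21 genes), the homologous recombination and Fanconi list (30 genes) and the translesion list (14 genes) also had no member 2-fold away from DMSO 8hr, with medians of 0.03, 0.10 and 0.20. The highest of each were MLH3 at 0.76, BRCA2 at 0.90 and POLI at 0.66. As 6.11% of all genes were 2-fold away, lists this short hold few such genes, so having none does not set them apart. BRCA2, a homologous recombination protein, was at 58.8, 36.4 and 110.1 CPM, so its ratio passed 2-fold, at 1.58, against the other DMSO library.

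Genes of mitosis and of replication were taken separately. Of 42 mitosis and spindle genes, 41 lay below 0, with a median of -0.62, and 4 were at least 2-fold lower than both DMSO libraries. By the same fold 9 were lower than the other DMSO library alone, with a median of -0.76. TOP2A, topoisomerase II of proliferating cells, was at 967 CPM in the DMSO 8hr library, 964 in the other DMSO library and 311 with MMS (-1.64). KIF20A, a kinesin of cell division, was at 201, 250 and 78.1 CPM (-1.36). PLK1, a mitotic kinase, was at 199.7, 199.9 and 82.1 CPM (-1.28), and CDC25C, the phosphatase that opens mitosis, had -1.18. In all 4 both DMSO libraries lay above the MMS library. CCNB1 (-0.83), AURKA (-0.85) and CCNA2 (-0.87) were lower by less than 2-fold, and PLK4 was the 1 member above 0, at 0.01.

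The 45 replication and G1/S genes had a median of 0.05, with 2 at least 2-fold higher and 2 at least 2-fold lower. These counts lie near the shares of all genes, 2.71% higher and 3.41% lower. CCND2 and ORC6, a D-type cyclin and an origin recognition subunit, had ratios of 1.68 and 1.26. CCND1, the main D-type cyclin of these cells, was at 1057, 867 and 441 CPM. Its ratio was -1.26 against DMSO 8hr and -0.97, just under 2-fold, against the other DMSO library. E2F2 was lower at -1.28, and RRM2, a ribonucleotide reductase subunit, was at 0.92. Among 22 checkpoint genes, CDC25C was the 1 at 2-fold and the median was 0.21. Only 5 of 33 histone genes passed the minimum, and most histone messages lack a poly(A) tail and have near copies, so their counts are uncertain.

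The description of the cytokine genes depended on the DMSO library. Against DMSO 8hr, 6 of 15 were at least 2-fold higher and 2 at least 2-fold lower, with a median of 0.62. Against the other DMSO library the median was -0.19, and the DMSO 8hr library itself had a median log2 ratio of -0.73 to the other DMSO library for these genes. CXCL3 and CXCL2, neutrophil-attracting chemokines, passed 2-fold against both. CXCL3 was at 22.9 CPM in the DMSO 8hr library, 53.7 in the other DMSO library and 162 with MMS. CXCL2 was at 26.5, 55.1 and 151 CPM. The MMS library was highest for both chemokines, and the other DMSO library lay between. IL8 was at 546, 1204 and 1421 CPM, so its ratio was 1.38 against DMSO 8hr and 0.24 against the other DMSO library. IL6 was at 54, 109.7 and 88.7 CPM, and its MMS level lay between the 2 DMSO libraries. CCL20 and IL24 were higher against both (1.58 and 1.07), and IL1A (1.15) missed 2-fold against the other library (0.66). CSF1, the macrophage growth factor, was at 301, 292 and 71.5 CPM (-2.07), below 2 DMSO libraries that lay close together. CSF2, a growth factor of granulocytes and macrophages, was also lower, at -1.12.

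The kappaB motif, the run of letters in capitals below, searched on both strands, occurred before the starts of CXCL1, CXCL2 and CXCL3, 3 of 12 cytokine genes with an entry, against 0.142% of all promoters. Of the described genes 0.239% held it, of the 237 higher genes with an entry 0.844%, and of the 283 lower genes with an entry 0.707%. The 2 genes at least 2-fold higher than both DMSO libraries are shown, since their stretches are near copies of each other.
CXCL2, chr4:74099224-74099313, minus strand: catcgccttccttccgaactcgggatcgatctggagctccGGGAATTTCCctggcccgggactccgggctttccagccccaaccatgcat
CXCL3, chr4:74038719-74038808, minus strand: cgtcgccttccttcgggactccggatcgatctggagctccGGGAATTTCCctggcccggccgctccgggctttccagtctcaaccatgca
Their transcripts are also alike, so reads shared by both may be uncounted. NFKBIA and BIRC3, which NF-kB induces, were lower, but the 18 pathway genes had no shared direction. Their median was 0.02 (-0.10 against the other DMSO library), with 10 above 0 and 8 below. NFKBIA, the inhibitor IkB-alpha, was at 146 and 196 CPM in the DMSO libraries and 48.8 with MMS (-1.58). BIRC3, a ubiquitin ligase of the same pathway, was at 241 and 360.5 CPM and 75 with MMS (-1.68). Both lay below both DMSO libraries, and they were the 2 of 18 pathway genes past 2-fold. TNFAIP3, a deubiquitinase that ends the signal, was at -0.79, and the subunit RELA at 0.59.

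Among death regulators, few genes reached 2-fold. TNFRSF10D, a decoy receptor for TRAIL, was at 122 and 115 CPM in the DMSO libraries and 312 with MMS (1.34). TNFSF10, TRAIL itself, was at 18.2 and 26.6 CPM and 5.78 with MMS (-1.57). BMF, a BH3-only death protein, was lower at -2.08 against DMSO 8hr, but its highest level was 7.33 CPM and it did not pass both references. MCL1 (0.58) and BCL2L1 (-0.62), both survival proteins, were under 2-fold in opposite directions. Of the autophagy and lysosome genes, 5 of 29 were at least 2-fold higher and 3 of them against both DMSO libraries. These 3 were ATG12 (1.58), a ubiquitin-like conjugator, SQSTM1, the cargo receptor p62 at 568, 584 and 1352 CPM, and MAP1LC3B (1.24), the LC3 protein of the autophagosome. No proteasome subunit (31 genes, median 0.02) and no cytosolic ribosomal protein gene (70 genes, median -0.05) was 2-fold away.

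**Figure D3:**
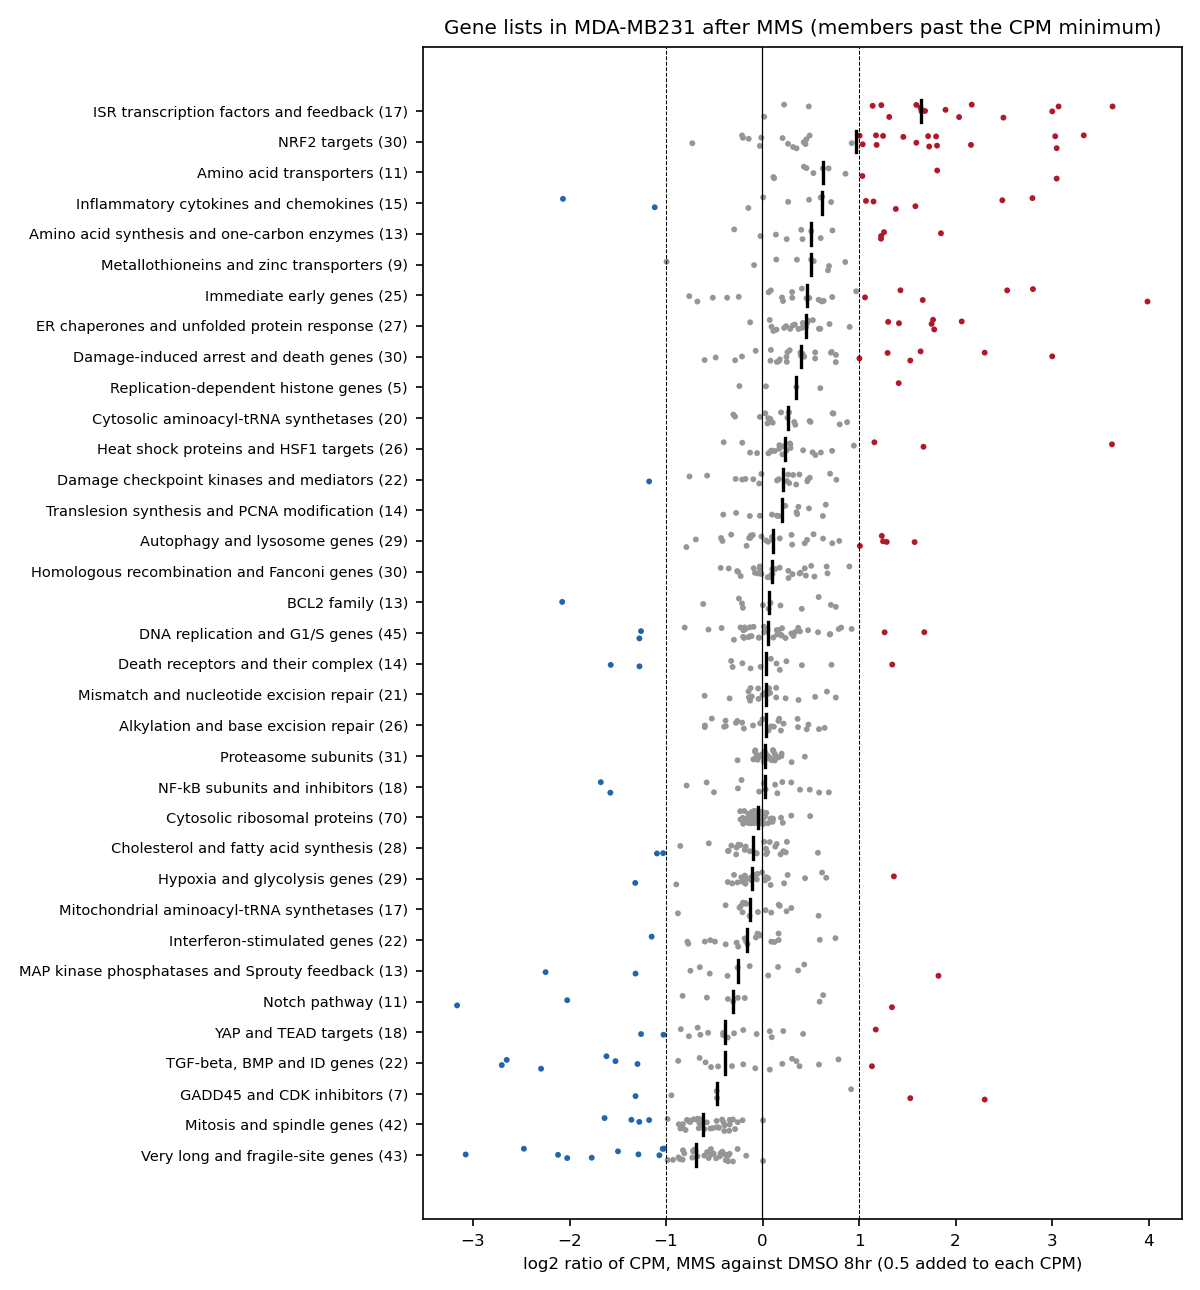
Log2 ratio of CPM (horizontal axis, MMS against DMSO 8hr, 0.5 added to each CPM) for every member past the CPM minimum in 35 gene lists; the number of members is in brackets, black bars are list medians, dashed lines mark 2-fold, and red and blue points are at least 2-fold higher and lower. The integrated stress response (median 1.65) and NRF2 lists (0.97) lie furthest to the right, and the very long genes (-0.69) and mitosis genes (-0.62) furthest to the left.

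LFNG, BMP4 and WNT7B, of the Notch, BMP and Wnt pathways, were among the genes of lowest ratio. Of the 15 lowest genes among those with a larger CPM of at least 10, 11 were in none of the lists described here, the families gathered in the closing section aside. The lowest of the 15 was LFNG, Lunatic fringe, which adds sugars to Notch receptors. It was at 43.3 CPM in the DMSO 8hr library, 26.4 in the other DMSO library and 4.39 with MMS, a log2 ratio of -3.17 (-3.61 to -3.01). MAML2, a Notch coactivator, was at 55.4, 63.6 and 13.2 CPM (-2.02), while the receptor NOTCH1 was at 0.63 and the target HES4 at 1.34. Of 11 Notch genes, 2 were at least 2-fold lower and 1 higher, with a median of -0.30. Against the other DMSO library 3 were lower and 2 higher, and the median turned to 0.13, so the Notch list as a whole had no direction that held for both references.

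In the TGF-beta and BMP list, 6 of 22 genes were at least 2-fold lower than both DMSO libraries and 1 was higher. The median was -0.39 against DMSO 8hr and -0.16 against the other DMSO library. BMP4, the ligand, was at 112, 74 and 16.8 CPM (-2.7). NOG, noggin, which binds BMP ligands, was at 66.5, 57.6 and 13.2 CPM (-2.29). ID1, a transcriptional target of BMP signals, was at 16.3, 18.1 and 4.99 CPM (-1.62). In all 3 the MMS library lay below both DMSO libraries. SMAD6, an inhibitory SMAD, SMAD3, a signal transducer, and TGFBR2, the type II receptor, had ratios of -2.65, -1.52 and -1.3. ID4, at 2.54, 1.17 and 6.18 CPM, was the 1 that was higher, and it passed the minimum only through the MMS library.

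Of 18 YAP and TEAD targets, 13 lay below 0 and 5 above. Only 1 was at least 2-fold higher and 2 at least 2-fold lower, 1 and 1 of them against both DMSO libraries. CTGF, a matricellular protein, was at 448, 371 and 1010 CPM (1.17). F3, tissue factor, the initiator of coagulation, was at 696, 645 and 291 CPM (-1.26). CTGF was thus above and F3 below both DMSO libraries, and the median of the 18 genes was -0.38 (-0.21 against the other DMSO library). Hypoxia and glycolysis genes had a median of -0.11 (-0.33 against the other DMSO library), with ADM, a vasodilator peptide, at 1.36 and the glucose carrier SLC2A1 at -0.89.

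The other lowest genes had varied roles. PDE7B, a cyclic AMP phosphodiesterase, was at 15.8 and 17.1 CPM in the DMSO libraries and 1.44 with MMS (-3.08). RUNX2, the osteoblast transcription factor, was at 31.7 and 34.1 CPM and 5.30 with MMS (-2.47). TRIB2, a relative of TRIB3, was at 71.6 and 55.4 CPM and 11.5 with MMS (-2.58). TRIB2 and TRIB3, both pseudokinases of the Tribbles family, thus lay on opposite sides. The secreted protease ADAMTS15 (-2.87), the ligand WNT7B (-2.56), the transporter SLCO4A1 (-2.79), the caveola protein SDPR (-2.65) and the heparan sulphate enzyme HS3ST1 (-2.33) were also among the 15. So were the zinc finger gene ZNF608 (-3.02), the MHC class II activator CIITA (-2.39), the factor TRERF1 (-2.37) and the pseudokinase SGK223 (-2.3). These 15 genes lay at least 2-fold below both DMSO libraries by the rule that named them. CDH11, a mesenchymal cadherin used as a bone marker, was at 337, 284 and 112 CPM (-1.59). Among the mesenchymal markers no gene reached 2-fold, the median of 14 was -0.35, and CAV1, caveolin, lay lowest at -0.86.

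The lower side leaned toward genes that span long stretches of the genome. Gene spans came from GENCODE v29 (GRCh38), in which 10540 of the 10778 genes (97.8%) matched by name. The 355 lower genes with a span had a median of 74.3 kb, the 281 higher genes 21.1 kb and the other 9904 genes 34.2 kb. Among 651 genes of 200 to 500 kb, 62 (9.52%) were at least 2-fold lower and 3 higher, with a median log2 ratio of -0.32. Among 119 genes over 500 kb, 18 (15.1%) were lower and 1 was higher, with a median of -0.64. In contrast, 2940 genes of 20 to 50 kb had a median of 0.08, with 96 higher (3.27%) and 56 lower (1.90%). Against the other DMSO library the medians of the 2 longest bins were -0.20 and -0.46, while the DMSO 8hr library lay 0.10 and 0.19 above the other DMSO library there. Part of the size in the longest bins thus moved with the choice of DMSO library, and the sign did not.

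**Figure D4:**
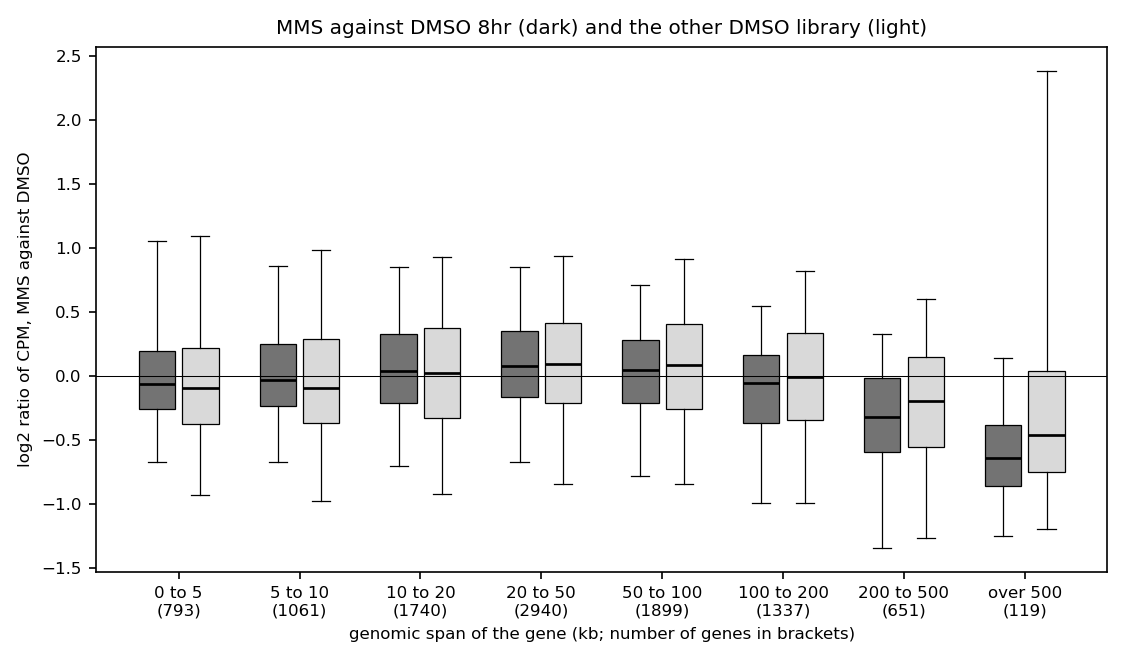
Log2 ratio of CPM by genomic span of the gene (horizontal axis, kb, number of genes in brackets) for MMS against DMSO 8hr (dark boxes) and against the other DMSO library (light boxes) in MDA-MB231 cells. Boxes show quartiles with the median as a bar and whiskers reach the 5th and 95th percentiles; the dark medians are near 0 up to 200 kb and lie at -0.32 and -0.64 in the 2 longest bins.

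A list of 59 very long and fragile-site genes overlaps the bins above. Of the 43 past the minimum, 42 lay below 0, 10 were at least 2-fold lower against DMSO 8hr and 5 against both DMSO libraries, and the median was -0.69 (-0.43 against the other DMSO library). NFIA, a nuclear factor I gene, was at 24.9, 20.4 and 5.34 CPM (-2.12). ATXN1, the ataxin gene, was at 30.4, 37.9 and 10.4 CPM (-1.5). Both lay below both DMSO libraries, as did PDE7B, RUNX2 and MAML2. EXT1, a heparan sulphate polymerase, was at 548, 477 and 261 CPM (-1.07). TCF4, at 8.01 CPM in the DMSO 8hr library, 1.92 in the other DMSO library and 1.99 with MMS, had a ratio of -1.77 against DMSO 8hr and 0.046 against the other DMSO library.

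Set beside MMS in U2OS, most of these genes lay on the same side. In U2OS, 858 of 11505 genes (7.46%) were at least 2-fold higher and 1276 (11.1%) at least 2-fold lower. Of the 217 genes higher than both DMSO libraries in MDA-MB231, 206 passed the minimum in U2OS, where 155 were at least 2-fold higher, 5 at least 2-fold lower, and the median was 1.46. Of the 244 lower genes, 192 passed in U2OS, where 153 were at least 2-fold lower and 1 at least 2-fold higher, with a median of -1.8. The integrated stress response list had a median of 2.77 there beside 1.65 in MDA-MB231, and the very long genes -1.35 and -0.69. The NRF2 list had 1.24 and 0.97, and the mitosis list -0.53 and -0.62. DDIT3 had a ratio of 4.08 in U2OS beside 2.17 in MDA-MB231, and ASNS 3.97 beside 1.23. HSPA5 was closer to 0 in U2OS, at 0.66 beside 1.78, as were CXCL3, at 0.34 beside 2.8, and CSF1, at -0.26 beside -2.07. MMP3 had 0.66 in U2OS, where its DMSO level was 53.2 CPM. CTGF was at -0.70 in U2OS beside 1.17 in MDA-MB231, and DUSP6 at 0.59 beside -1.32. With 1 library per line and treatment, no difference between the lines was tested.

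The other drugs in MDA-MB231 cells were compared with the second DMSO library, which they share, so their ratios are not independent of each other. With doxorubicin 990 of 11167 genes (8.87%) were at least 2-fold higher and 2003 (17.9%) at least 2-fold lower, with etoposide 950 of 11017 (8.62%) and 1228 (11.1%), 19.8% in all, and with paclitaxel 50 of 10830 (0.462%) and 1 (0.00923%). The other list medians are in the chart of list medians by drug and line. The integrated stress response list stood at 1.65 with MMS, -0.07 with doxorubicin, 0.29 with etoposide and -0.09 with paclitaxel, each against its own DMSO library. The NRF2 list stood at 0.97, 0.45, 0.31 and 0.04 in the same order, and the mitosis list at -0.62, -1.16, -1.35 and 0.18. Against the DMSO library of the other drugs, the MMS medians were 1.71 for the integrated stress response list, 0.85 for NRF2 and -0.76 for mitosis. HMOX1 had -1.69 with doxorubicin and 1.36 with etoposide beside 3.33 with MMS, and TRIB3 -2.38 and -0.34 beside 2.5. ATF3 was high with all 3, at 3.63 with MMS, 4.26 with doxorubicin and 2.96 with etoposide. EGR1 stood at 2.8, 4.47 and 4.53 in that order. HERPUD1 was high with MMS (2.06) and etoposide (1.11) and low with doxorubicin (-2.68). These differences between drugs were not tested, and the MMS ratios given beside them are against DMSO 8hr, not the DMSO library of the other drugs.

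**Figure D5:**
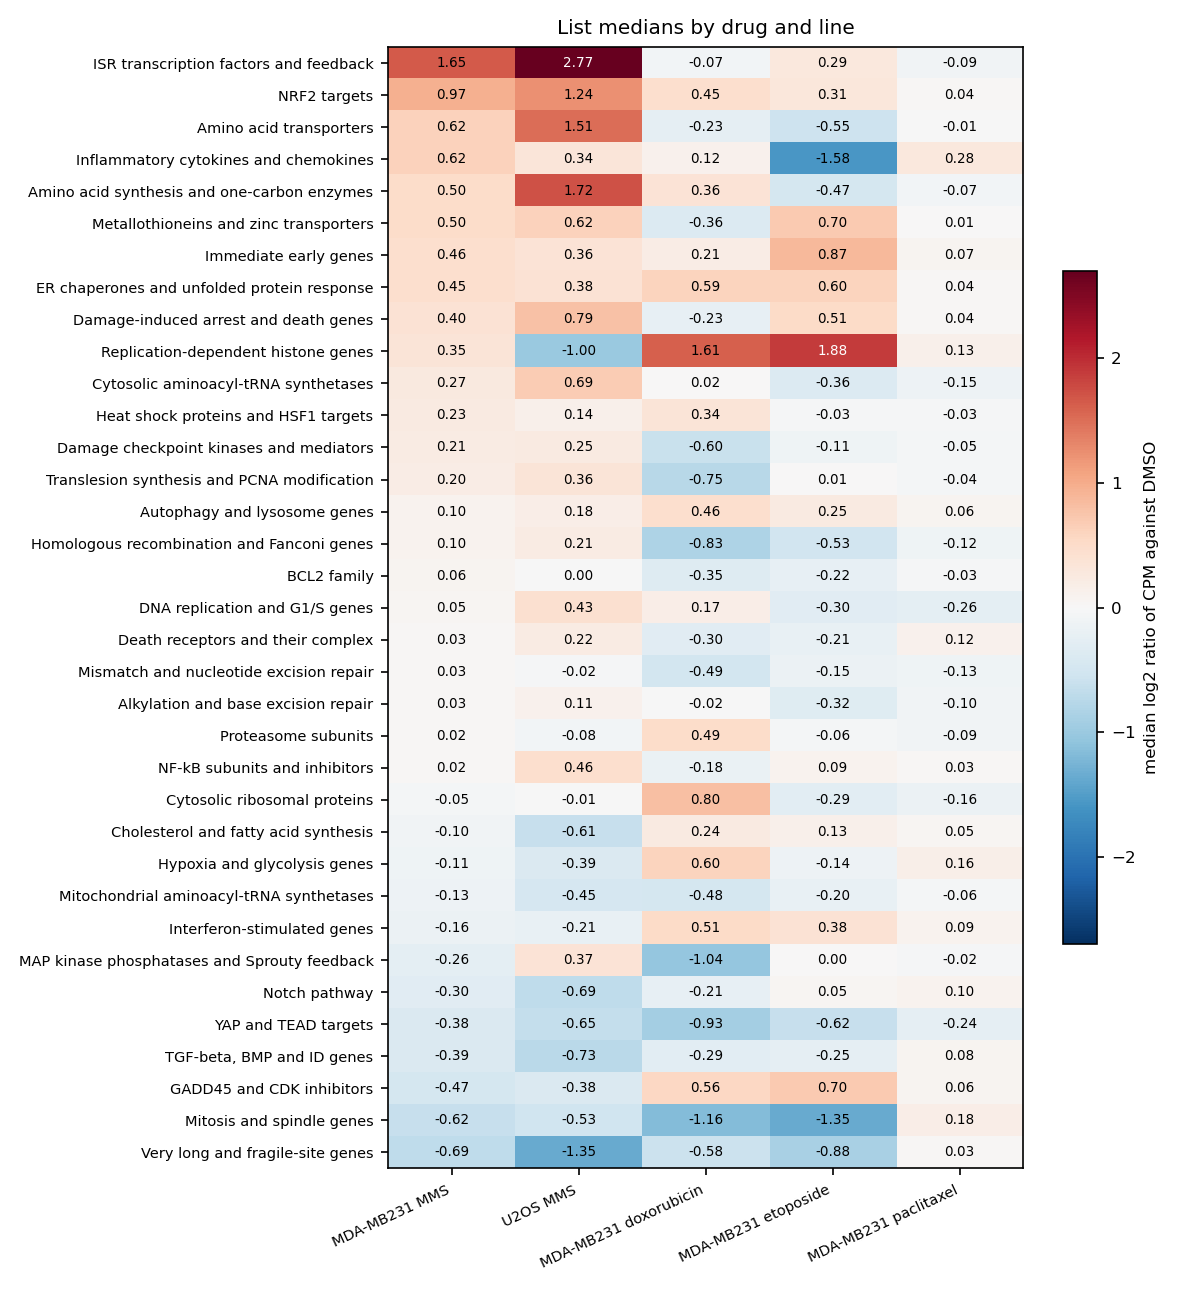
Median log2 ratio of CPM of each gene list (rows) for MMS in MDA-MB231 and in U2OS cells and for doxorubicin, etoposide and paclitaxel in MDA-MB231 cells (columns), each against its own DMSO library; the MDA-MB231 drugs other than MMS share 1 DMSO library. Red is higher and blue lower, and the integrated stress response list is highest in both MMS columns, at 1.65 and 2.77.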

How the data were processed

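Total RNA of cells from subconfluent dishes was purified on silica columns and made into libraries by standard Illumina methods, per the labels' protocols. The deposited unit is the raw count of reads for each gene symbol (23228 genes), with 5 summary rows per library; the submitters' processing notes name CASAVA 1.8.2, TopHat2 2.0.8b and HTSeq, and the builds hg19 and mm9. The sources used here do not give the strand setting, the read length or the RNA selection. Overlapping antisense genes cannot therefore be told apart, and counts of near-identical genes are uncertain. Reads at several places made up 30.9% of tabulated reads in the MMS library, 30.4% in DMSO 8hr and 30.0% in the other DMSO library, and stayed out with the other summary rows.

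CPM were scaled by TMM (edgeR 4.0.16, R 4.3.3) over all 11 libraries, on 14602 genes with at least 1 CPM in 2 libraries. Ratios add 0.5 to each CPM, and a gene counts as 2-fold where the larger CPM is at least 5. With 1 library a side there is no test; intervals are exact binomial (Clopper-Pearson) 95% intervals of the plain read ratio and cover counting error only. The choice of libraries and the lists were made with earlier results of these data known. Genes named are the 15 highest and 15 lowest ratios with a larger CPM of at least 10 and 2-fold against both DMSO libraries, up to 5 members per list, and CDKN1A, MDM2, ATF3, ATF4, DDIT3, HMOX1, IL8, IL6, FOS, MYC, MGMT and MPG; pseudogenes, small and antisense RNAs and placeholder symbols stay unnamed. A few genes under these rules are not reported here. Further list members, and the families in the closing section, are named after their values were seen. Promoters are RefSeq entries (GRCh38.p14), matched for 81.4% of described genes, and spans come from GENCODE v29; the files' own build was not used for coordinates. The scripts were tested on simulated counts. Alternatives were DESeq2 1.42.0 size factors, other scalings, minimums and additions, and the other DMSO library.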

Additional observations from a re-analysis of the deposited data

Results flagged for a closer look

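Among the genes named above, F3 and HIST2H2BE were at least 2-fold away from DMSO in opposite directions in the MMS libraries of the 2 lines. F3, tissue factor, had a log2 ratio of -1.26 in MDA-MB231 cells (696 CPM in the DMSO 8hr library, 645 in the other DMSO library and 291 with MMS) and of 1.65 in U2OS cells (5.15 CPM with DMSO and 17.3 with MMS). HIST2H2BE, a histone H2B gene, had a log2 ratio of 1.41 in MDA-MB231 cells (1.86, 2.46 and 5.78 CPM) and of -1.08 in U2OS cells (54 and 25.3 CPM). In MDA-MB231 cells it passed the minimum of 5 CPM only through the MMS library. Its interval against the other DMSO library, 0.795 to 1.68, reached below 2-fold, and histone counts are uncertain. Both genes have 1 library per line and treatment, and the difference was not tested.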

How the results depend on the processing

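The counts of genes at least 2-fold away kept within 1.5 times of their reported values under every alternative run, from 253 to 419 for higher genes and from 305 to 539 for lower genes, and from 187 to 254 and 204 to 313 against both DMSO libraries. Other scalings (total counts, DESeq2 size factors, TMM over the 2 libraries) shifted the median ratio of all genes by no more than 0.02 and kept at least 98 of 99 named genes past 2-fold. The choice of DMSO library mattered most. With the other DMSO library, 23 of 40 list medians and 131 of 206 named genes moved beyond their counting intervals. For a list these were the medians of its members' interval ends, and spread between genes was not measured. By the same change 11 named genes no longer passed 2-fold (among them BMF, CA12, CCND1, FJX1, GABARAPL1, IL8, IRF1, TCF4, TNFRSF21 and ULK1). TCF4 turned from -1.77 to 0.046, and its reads in the DMSO 8hr library, 129, stand apart from 49 and 50 in the other DMSO and MMS libraries. Without any CPM minimum 11 list medians moved. No paired analysis was possible because the labels carry no replicate numbers and each treatment has 1 library. No library could be left out of a comparison of 2. Depth limits rare genes: 12450 genes lay under the CPM minimum in both libraries, and a promoter entry matched 77.1% of the lower genes, too few for a check, so motif shares of the lower genes are void as one.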

Other observations

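Several gene families outside the lists above stood out when all values were read through, and they were gathered after those values were seen. Genes named ZNF, most of them zinc finger transcription factors, leaned higher. Of 387 past the minimum, 62 were at least 2-fold higher and 6 at least 2-fold lower, beside 2.71% and 3.41% of all genes, 324 lay above 0, and the median log2 ratio was 0.53 (0.52 against the other DMSO library and 0.56 in U2OS). Against both DMSO libraries 40 were higher and 5 lower. ZNF568 was at 5.28 CPM in the DMSO 8hr library, 6.10 in the other DMSO library and 20.4 with MMS (1.85), and ZNF829 at 9.50, 10.2 and 32.6 CPM (1.73). These genes resemble each other in sequence, so reads shared by several may be uncounted, and their median genomic span was 23.7 kb. ZNF608 (-3.02) and ZNF238 (-1.67) were the lowest of the family.

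Genes of the cell surface and the matrix leaned lower. Of 41 collagens, laminins and integrins, 37 lay below 0, with a median of -0.47, and 4 were at least 2-fold lower, 2 of them against both DMSO libraries. COL5A1, a fibril collagen, was at 119.6, 105 and 49 CPM (-1.28). Of 29 semaphorin and ephrin genes the median was -0.68 (-0.44 against the other DMSO library), and 3 were at least 2-fold lower, 1 of them against both. FZD2, a Wnt receptor, was at 84.9, 69.4 and 22.6 CPM (-1.89), 1 of 4 among 10 Wnt ligands and receptors at least 2-fold lower, of which 2 were so against both. PLAU, the urokinase plasminogen activator, was at 378, 473 and 98 CPM (-1.94). Of 37 matrix proteases and inhibitors, 7 were at least 2-fold lower and 3 higher, 6 and 3 of them against both. SERPINB2, an inhibitor of urokinase, was at 32.3 CPM in the DMSO 8hr library, 1.52 in the other DMSO library and 144 with MMS. The 2 DMSO libraries differed for it by a log2 ratio of 4.02, more than the MMS library differed from DMSO 8hr (2.14). PTGS2, the inducible cyclooxygenase, was at 48.4, 27.9 and 217 CPM (2.15), and PTGES, which makes prostaglandin E, was lower at -1.12. PDE4B, a second cyclic AMP phosphodiesterase, was at 8.32, 7.16 and 0.479 CPM (-3.17). Of 77 respiratory chain subunits none was 2-fold away, with a median of -0.13.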
